A study of Mus musculus with 24 samples.

Results

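The genes described here are 10 negative feedback regulators of MAP kinase signalling: 7 dual-specificity phosphatases (Dusp1, Dusp2, Dusp4, Dusp5, Dusp6, Dusp10 and Dusp16) and 3 Sprouty genes (Spry1, Spry2 and Spry4). They were chosen by name as a textbook list, out of 14489 genes with a tested level. Each had exactly 1 probe set with a single gene symbol, and all 10 were above the 40th percentile of the array, which lay between 5.90 and 6.08, on 24 of 24 arrays. Levels are log2 intensities of a probe set, and differences are log2 differences, so a difference of 1 is a doubling. Levels of different probe sets were not compared with each other.

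The cells were MLO-Y4, a mouse osteocyte-like line established from long bone of a mouse that expressed the simian virus large T antigen in osteoblast-lineage cells. They were given either the antibody Cx43(E2), which closes connexin 43 hemichannels (E2 arm), or an irrelevant rabbit IgG (IgG arm), for 30 min at 37 °C in 5% CO2. Both were diluted 1:50, which for Cx43(E2) was 28 µg/ml. Each arm was then divided over 4 environments. In 3 of them the dishes stood at the ug, 2g or 1g position of a high magneto-gravitational platform, on which a strong magnetic field gradient changes the effective weight of the cells. In the 4th they stayed in an incubator (C). Each of the 8 groups had 3 arrays, numbered 1 to 3 in the labels. The 4 arrays of one arm and one number are called a set here (E2 1 to E2 3, IgG 1 to IgG 3). How long the dishes stood there is not stated. The strong magnetic field and the effective weight of a position cannot be told apart when a platform position is set against the incubator. The labels do not tell whether replicates came from separate cultures, so p-values measure only the spread between these arrays. In bulk RNA, fewer cells of a kind and less RNA per cell cannot be told apart.

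MAP kinases (ERK, JNK and p38) are switched on by phosphorylation of a threonine and a nearby tyrosine. Dual-specificity phosphatases remove both phosphates, and Sprouty proteins act upstream, where they limit signalling from receptor tyrosine kinases. Many of these genes are themselves transcribed when the pathway is active, so their mRNA is widely read as a trace of recent MAP kinase signalling. In bone cells, MAP kinases are among the kinases activated by mechanical loading.

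Among 9 osteocyte and osteoblast markers with a probe set, 6 passed the filter, as did 72.7% of the 19938 genes with a single-symbol probe set. Pdpn, an early osteocyte marker, lay between 12.50 and 12.84, and Gja1, which encodes connexin 43, between 11.37 and 12.00. Dmp1, Mepe and Phex, markers of mineralising osteocytes, were below the 40th percentile, with a highest value of 4.88 for Dmp1, whereas Sost and Fgf23, 2 other osteocyte genes, passed with means of 7.07 and 7.04. Markers of other cell types passed as well, 3 of 5 for macrophages, 3 of 4 for endothelium and 2 of 3 for chondrocytes. Among the last was Sox9, between 9.23 and 10.77. Of the endothelial markers that passed, Pecam1 and Tek lay close to the 40th percentile, with means of 5.82 and 5.96, and Cdh5 had 6.49.

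The promoters were searched for motifs of factors that MAP kinase signalling is known to act on, and 5 are printed here. Spry2 and Dusp6 had the largest differences in the E2 arm, Dusp2 was the member called with a replicate block, Dusp1 held the full cyclic AMP response element and Dusp5 the CArG boxes. RefSeq's start-site table for GRCm38.p6 held 8 of the 10 genes, all but Dusp4 and Spry4. Each window runs 5′ to 3′ on the gene's strand, over 300 bases, with 250 before the start site and 50 from it. Dusp1 lies at chr17:26508423-26508722 on the minus strand, Dusp2 at chr2:127335909-127336208 on the plus strand, Dusp5 at chr19:53528895-53529194 on the plus strand, Dusp6 at chr10:99262981-99263280 on the plus strand and Spry2 at chr14:105896770-105897069 on the minus strand. Capitals mark matches to the searched motifs.
Dusp1: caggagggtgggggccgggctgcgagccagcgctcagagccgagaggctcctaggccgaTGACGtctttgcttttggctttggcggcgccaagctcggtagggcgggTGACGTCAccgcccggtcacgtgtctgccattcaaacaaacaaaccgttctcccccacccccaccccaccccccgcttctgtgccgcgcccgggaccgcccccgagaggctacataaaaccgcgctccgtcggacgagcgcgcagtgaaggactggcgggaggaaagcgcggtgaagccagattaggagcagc
Dusp2: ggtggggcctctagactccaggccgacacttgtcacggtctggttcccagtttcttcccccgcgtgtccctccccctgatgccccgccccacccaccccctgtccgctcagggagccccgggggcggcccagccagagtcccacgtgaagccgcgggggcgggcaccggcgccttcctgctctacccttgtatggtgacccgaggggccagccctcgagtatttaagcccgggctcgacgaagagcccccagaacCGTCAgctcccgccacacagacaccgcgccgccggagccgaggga
Dusp5: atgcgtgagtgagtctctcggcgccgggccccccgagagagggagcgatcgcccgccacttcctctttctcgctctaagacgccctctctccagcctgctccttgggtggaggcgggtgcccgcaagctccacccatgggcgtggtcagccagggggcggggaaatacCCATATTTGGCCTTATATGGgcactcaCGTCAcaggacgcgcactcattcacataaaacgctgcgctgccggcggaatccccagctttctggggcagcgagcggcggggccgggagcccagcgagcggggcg
Dusp6: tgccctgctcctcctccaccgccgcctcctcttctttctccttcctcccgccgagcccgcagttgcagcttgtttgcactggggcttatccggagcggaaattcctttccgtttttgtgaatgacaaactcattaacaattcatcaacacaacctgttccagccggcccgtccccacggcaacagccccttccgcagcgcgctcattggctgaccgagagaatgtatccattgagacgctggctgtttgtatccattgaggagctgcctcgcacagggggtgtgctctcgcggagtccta
Spry2: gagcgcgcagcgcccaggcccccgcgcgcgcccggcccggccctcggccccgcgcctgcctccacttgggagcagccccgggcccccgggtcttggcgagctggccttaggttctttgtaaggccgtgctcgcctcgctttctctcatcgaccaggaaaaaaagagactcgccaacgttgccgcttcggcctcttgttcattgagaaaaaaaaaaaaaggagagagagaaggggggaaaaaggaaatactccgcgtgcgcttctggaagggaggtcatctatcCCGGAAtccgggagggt

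Both strands were searched for the cyclic AMP response element TGACGTCA and for its shorter form TGACG (which every full element also holds). The AP-1 site TGANTCA, the Ets motif CCGGAA and the CArG box that serum response factor binds were searched as well. Dusp1 had the full response element at -143 to -136 relative to the start site, a motif present in 1.79% of all 32851 promoters in the table. The shorter form was in 4 of 8 promoters (Dusp1, Dusp2, Dusp5 and Dusp16), against 20.8% of all promoters. In Dusp2 it lay at 6 to 10 after the start site. Dusp5 had adjoining CArG boxes, at -82 to -73 and at -72 to -63, a motif in 1.63% of promoters. Spry2 had the Ets motif at 34 to 39 after the start site, as did 14.9% of promoters somewhere in the window. Dusp6 had none of the searched motifs in its window, and the AP-1 site, found in 7.81% of promoters, was in none of the 8. The shorter Ets string GGAA was not searched. A match is a string of letters and not a binding site.

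Some arrays stood apart on these genes. In set E2 2 the ug array was the highest of the set for 9 of 10 members, in set IgG 3 for 8 and in set E2 3 for 7, against 28.5%, 19% and 24.8% of all genes. In set E2 1 the 1g array was highest for 5 members and the ug array for 4, against 42.3% and 18.7% of all genes. Set IgG 2 had its highest array at 2g for 8 of 10 members and at ug for none, against 25.9% and 19.2% of all genes. In set IgG 1 the highest array was 1g for 4 members, C for 3, ug for 2 and 2g for 1. Whether the IgG 2 arrays at 2g and ug carry the right labels was not tested. The main results are given below with and without the ug arrays of E2 2 and IgG 3 and these IgG 2 arrays.

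**Figure D1:**
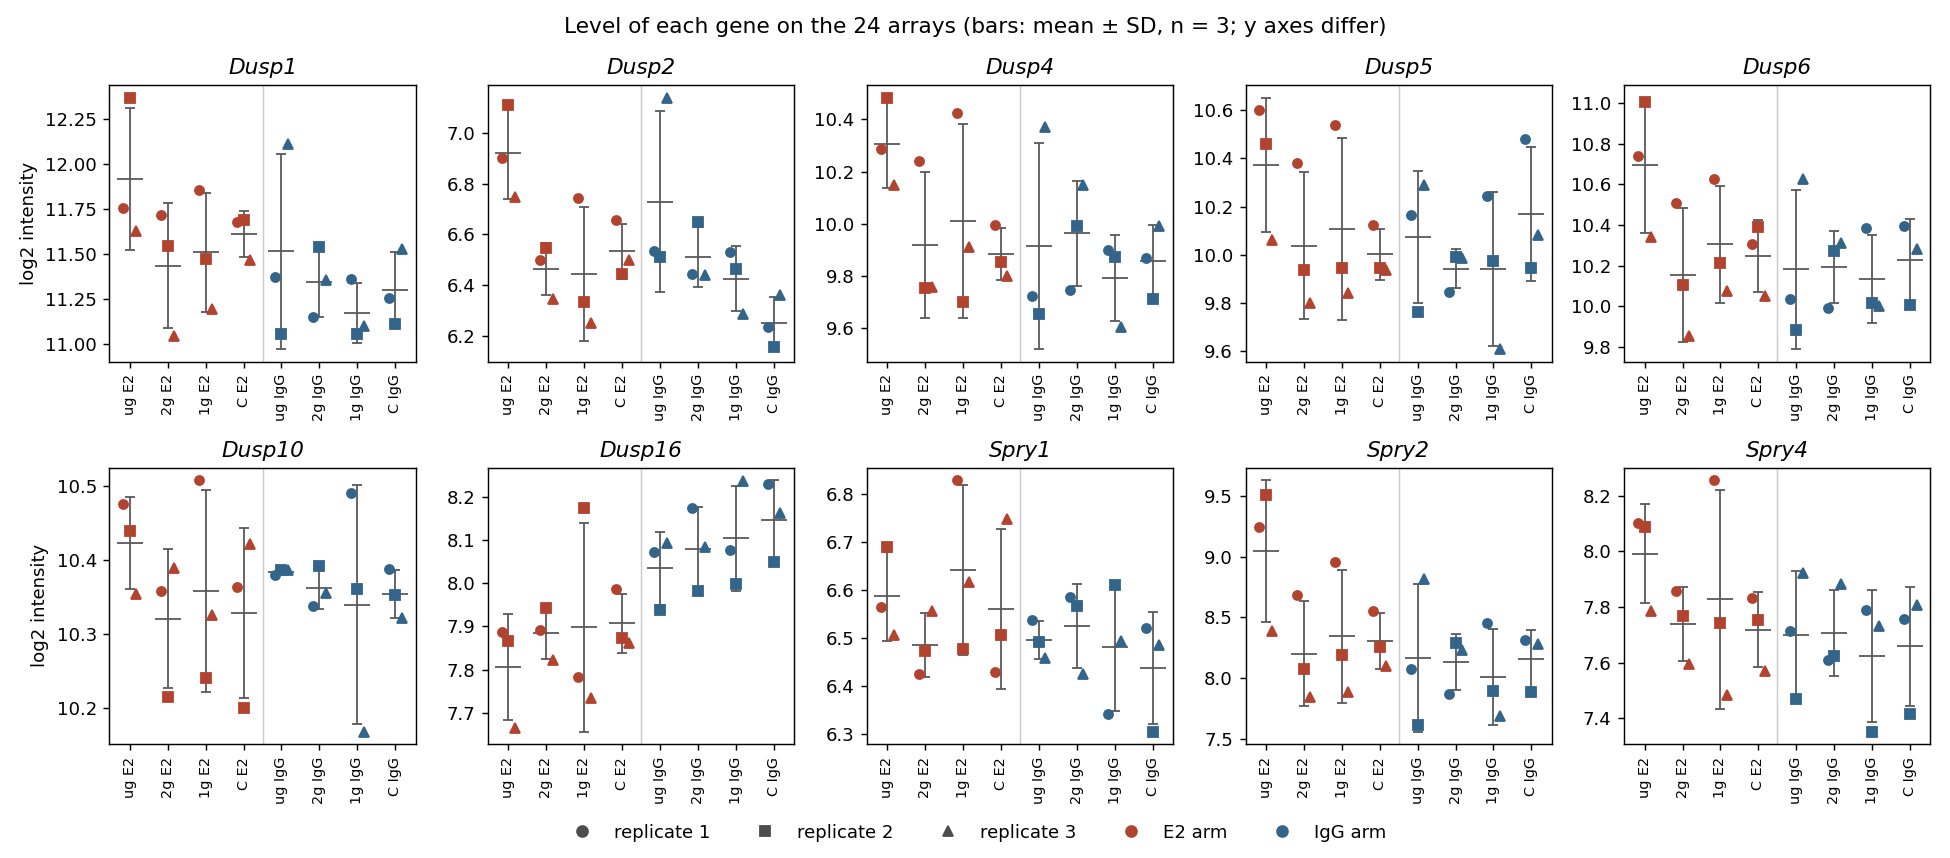
Level (log2 intensity) of each of the 10 genes on the 24 arrays, with 1 panel a gene, groups along the x axis, circles, squares and triangles for replicates 1, 2 and 3, red for E2 and blue for IgG, and bars for mean ± SD (n = 3). The y axes differ between panels. The ug E2 group has the highest mean of its arm for 8 of 10 genes, and the spread within a group is often as large as the distance between groups.

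In no comparison of the design did a member pass the test. The design gives 22 comparisons (each environment against each other one in an arm, the platform positions together against the incubator, E2 against IgG in each environment and over sets, and the difference between arms), and 5 more were added after the data were seen. In limma without a replicate block, 0 of 10 members had an adjusted p below 0.05 in any of these 27 comparisons, adjusted over all 14489 genes. E2 against IgG in the incubator had the most called genes of the 27, and there 0 of 10 members were called, against 2.92% of all genes. In the added comparison of ug with the mean of the other environments within the E2 arm, 0.0138% of all genes were called. Differences below are therefore given as values with their errors.

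In the E2 arm, 9 of 10 members were higher at ug than in the incubator. The median log2 difference of the members was 0.34, against -0.03 over all genes, and 39.3% of all genes had a difference above 0. Of the members, 4 reached an unadjusted p below 0.05 in the higher direction, against 1.58% of all genes (4.22% in either direction), and 0 were called, against 0% of all genes. The 4 were Spry2, Dusp6, Dusp4 and Dusp2. The lowest adjusted p of a member was 0.9998 in limma without a block and 0.273 with the replicate number as a block. For 7 of 10 members the ug array was above the C array in each of the 3 sets, against 10.1% of all genes. Without the ug array of set E2 2, 8 of 10 members were higher, with a median of 0.26, and 0 had an unadjusted p below 0.05 in limma, with or without the block, against 0.952% of all genes without it.

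Spry2, which restrains growth factor receptor signalling to ERK, had the largest difference among the members. It had 9.24, 9.51 and 8.39 at ug in E2 arrays 1 to 3, against 8.55, 8.26 and 8.10 in the incubator. All 3 sets were higher at ug, by 0.69, 1.25 and 0.29, but the groups overlapped, since the ug array of set E2 3 was below the C array of set E2 1. The log2 difference was 0.74 ± 0.32 (SE, n = 3 each), with a 95% interval of 0.07 to 1.41. Without the ug array of set E2 2 it was 0.51, and over the settings tried it lay between 0.49 and 0.97.

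Dusp6, a cytoplasmic phosphatase that acts on ERK, had the next largest difference. Its ug levels were 10.74, 11.01 and 10.34, against 10.31, 10.39 and 10.05 in the incubator. Each set was higher at ug and the groups overlapped. The log2 difference was 0.45 ± 0.21 (SE, n = 3 each), and 0.29 without the ug array of set E2 2.

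Dusp4, a nuclear phosphatase of ERK and JNK, had 10.29, 10.48 and 10.15 at ug, against 9.99, 9.85 and 9.80 in the incubator, so its groups did not overlap (2.82% of all genes were separated in that direction). The log2 difference was 0.42 ± 0.19 (SE, n = 3 each), and 0.32 without set E2 2. Dusp5, a nuclear phosphatase of ERK, had a log2 difference of 0.37 ± 0.20, and Spry4, another Sprouty inhibitor, had 0.27 ± 0.17. Both were higher at ug in 3 of 3 sets, and both had overlapping groups. Without the ug array of set E2 2 they had 0.33 and 0.23.

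Dusp1, an immediate-early phosphatase of p38, JNK and ERK, owed most of its difference to 1 array. It had 11.75, 12.37 and 11.63 at ug, against 11.68, 11.69 and 11.46 in the incubator. Its log2 difference was 0.31 ± 0.23 (SE, n = 3 each), and 0.08 without the ug array of set E2 2.

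Dusp2 had 6.90, 7.11 and 6.75 at ug in the E2 arm, against 6.66, 6.44 and 6.50 in the incubator. Its groups did not overlap, and the log2 difference was 0.39 ± 0.15, and 0.25 without set E2 2. Dusp10, which acts on JNK and p38, had a log2 difference of 0.09 ± 0.08. Spry1 had 0.03 ± 0.10, with 1 of 3 sets lower, and its sign turned in 3 of 11 alternative settings. Dusp16, a phosphatase of JNK and p38, was the one member with a negative difference, -0.10 ± 0.10.

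**Figure D2:**
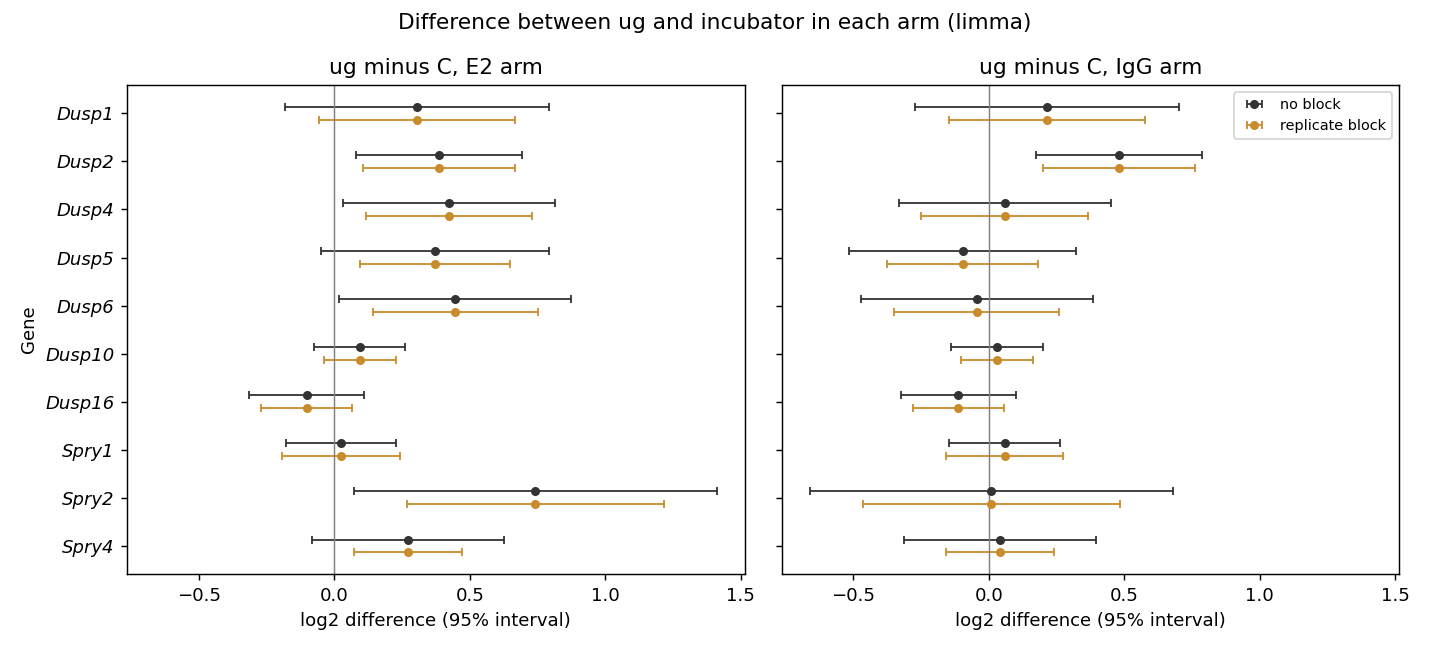
Log2 difference between ug and the incubator for each gene in the E2 arm (left) and the IgG arm (right), as points with 95% intervals from limma, black without a block and orange with the replicate number as a block. Spry2 in the E2 arm sits at 0.74 and in the IgG arm at 0.01, and Dusp2 at 0.39 and 0.48.

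In the IgG arm the largest log2 difference among the members belonged to Dusp2, a nuclear phosphatase known from activated lymphocytes. It had 6.54, 6.51 and 7.14 at ug, against 6.23, 6.16 and 6.36 in the incubator. The groups did not overlap (7.36% of all genes were separated in that direction) and each of the 3 sets was higher at ug (19% of all genes). The log2 difference was 0.48 ± 0.15 (SE, n = 3 each), and 0.27 without the ug array of set IgG 3. Its unadjusted p was 0.00384 and its adjusted p in limma 0.949, and 0 members were called, against 0% of all genes. Dusp2 was the only member with an unadjusted p below 0.05, against 3.33% of all genes in the higher direction.

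The other 9 members had log2 differences between -0.11 (Dusp16) and 0.22 (Dusp1) in the IgG arm, and the sets went different ways. Of the 10 members 7 were higher at ug, with a median of 0.04, where 49.2% of all genes had a difference above 0. Without the ug array of set IgG 3, 3 of 10 were higher, with a median of -0.11, and without set IgG 2's arrays at 2g and ug 9 of 10, with a median of 0.13. Spry2 had 8.08, 7.61 and 8.82 at ug, against 8.31, 7.89 and 8.28 in the incubator. Sets IgG 1 and IgG 2 were lower at ug, by 0.24 and 0.28, and set IgG 3 was higher by 0.54. The mean log2 difference of Spry2 was 0.01 ± 0.32 (SE, n = 3 each), -0.32 without the ug array of set IgG 3 and 0.29 without set IgG 2's arrays at 2g and ug. Dusp6 had the same pattern, with set differences of -0.36, -0.12 and 0.35 between ug and the incubator.

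The difference between arms in the ug response was tested directly. For Spry2 it was 0.73 ± 0.45 (E2 minus IgG, SE), with a 95% interval of -0.21 to 1.68 and an adjusted p of 0.9999 in limma. For Dusp6 it was 0.49 ± 0.29, with an interval of -0.11 to 1.10, for Dusp5 0.47 ± 0.29 and for Dusp4 0.36 ± 0.27. For Dusp2 it was -0.09 ± 0.21, with an interval of -0.53 to 0.34. With the replicate number as a block, the intervals were 0.06 to 1.40 for Spry2, 0.06 to 0.92 for Dusp6 and 0.08 to 0.86 for Dusp5. These 3 of 10 members had an unadjusted p below 0.05 with the block, against 3.06% of all genes in the higher direction, and 0 had one without it. The count with the block was 0 without the ug array of set E2 2, 4 without that of set IgG 3 and 0 without the arrays of set IgG 2. The lowest adjusted p of a member with the block was 0.684, so that no member was called either way. Over the settings tried, the difference of Spry2 lay between 0.45 (without the same IgG 2 arrays) and 1.06 (without the ug array of set IgG 3). That of Dusp2 lay between -0.23 and 0.11, and its sign turned in 3 of 16 settings.

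Each set holds its own incubator and platform arrays, so the ug array was also set against the mean of the other 3 arrays of its set, a comparison added after the data were seen. In set E2 2, Spry2 was higher at ug by 1.33, Dusp1 by 0.80, Dusp6 by 0.77 and Dusp4 by 0.71. In set IgG 3, Dusp1 was higher by 0.79, Dusp2 by 0.78 and Spry2 by 0.75. In set IgG 2, Spry2 was lower at ug by a log2 difference of -0.41 and Dusp6 by -0.21. Of the 10 members, 6 exceeded 0.5 in set E2 2, 3 in set IgG 3, 1 in set E2 1 and none in the other sets. Over all genes, 0.814%, 0.490% and 0.683% exceeded 0.5 in sets E2 2, IgG 3 and E2 1.

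**Figure D3:**
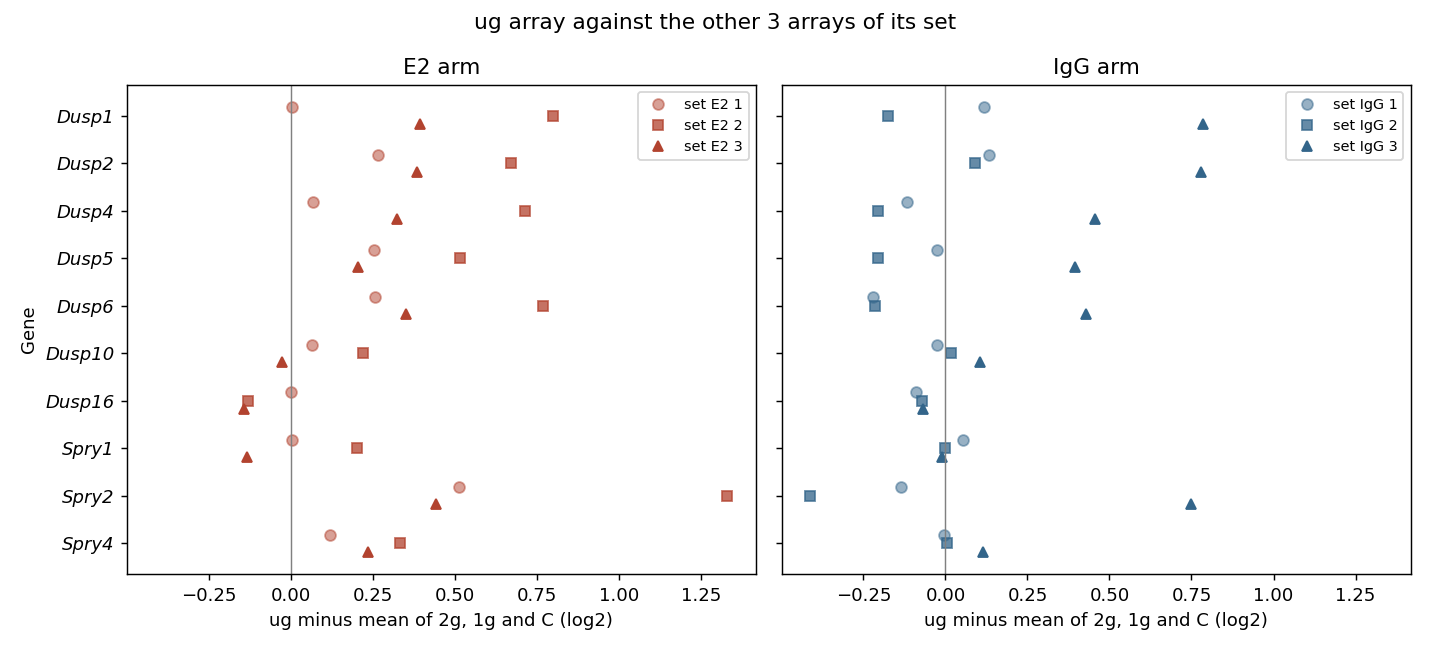
Log2 difference between the ug array and the mean of the 2g, 1g and C arrays of the same set, with 1 point per set and gene, for the E2 arm (left) and the IgG arm (right). Set E2 2 reaches 1.33 for Spry2, set IgG 3 reaches 0.79 for Dusp1, and Dusp2 is above 0 in all 6 sets.

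Dusp2 was higher at ug in all 6 sets, both against the incubator array of the set and against the mean of the other 3 arrays, where the differences lay between 0.09 (IgG 2) and 0.78 (IgG 3). Of all genes, 2.58% were above 0 in 6 of 6 sets in the incubator comparison and 1.53% in the other. Averaged over both arms, ug exceeded the mean of the other environments by 0.39 ± 0.08 (SE, 6 ug arrays against 18). The adjusted p in limma was 0.210 without a block, where 1 gene of all (0.0069%) was called, and 0.0300 with the replicate number as a block, where 53 genes (0.366%) and 1 member were called. A comparison with the incubator alone over both arms was likewise added after the data were seen. There the difference was 0.43 ± 0.10 (SE, 6 arrays each). Its adjusted p in limma was 0.367 without a block (0% of all genes called) and 0.0446 with it (0.628% called). With the set as a random block the lowest adjusted p of a member was 0.0371 against the mean of the other environments and 0.0570 against the incubator, so the call against the incubator was lost.

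The blocked call for Dusp2 was lost when most of the single sets, or some single arrays, were left out. Against the mean of the other environments, its adjusted p with the block was 0.241 without the ug array of set E2 2 and 0.304 without that of set IgG 3, with differences of 0.33 and 0.28. Without both arrays the difference was 0.22 ± 0.07 and the adjusted p 0.999. When a whole set was left out, the blocked call against the incubator was kept only without set E2 1, with an adjusted p of 0.0377. The highest adjusted p was 0.211, without set E2 2. Against the mean of the other environments, the call was kept only without E2 1 (adjusted p 0.0202) or IgG 2 (0.0137). The highest adjusted p there was 0.378, without IgG 3. Without IgG 2, or only its 2g and ug arrays, Dusp1 was called as well, with an adjusted p of 0.0498 and 0.0351. The 2g and ug arrays were picked after the data were seen, because most members were highest at 2g there. Their removal favours a larger ug difference, so the calls that follow it are no support. Dusp2 was also a dim probe set, with a mean level of 6.53 at the 18.4th percentile of the tested genes.

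Dusp16 went the other way. Against the incubator array of its set, the ug array was lower in 6 of 6 sets, by log2 differences of -0.01 to -0.20, as were 6.05% of all genes. Over both arms the difference was -0.11 ± 0.07 (SE, 6 arrays each), with an adjusted p of 0.915 in limma without a block and 0.408 with it.

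The other platform positions were also set against the incubator. In the E2 arm, the log2 differences reached 0.13 ± 0.19 for Dusp4 at 1g and -0.17 ± 0.23 for Dusp1 at 2g. The medians over the 10 members were -0.05 at 2g and 0.05 at 1g, against 0.34 at ug. In the IgG arm the medians were 0.03 at 2g and -0.05 at 1g. Dusp5 had a log2 difference of -0.23 ± 0.20 at both positions in this arm. Dusp2 had a log2 difference of 0.26 ± 0.15 at 2g and 0.18 ± 0.15 at 1g, and its platform positions together exceeded the incubator by 0.31 ± 0.12 (SE) in 3 of 3 sets, with an adjusted p of 0.430 in limma. Over all genes, 26.2% were higher on the platform in each of the 3 sets of that arm. Positions on the platform were also set against each other. In the E2 arm, 8 of 10 members were higher at ug than at 1g (median 0.28, 48.2% of all genes above 0). Against 2g, 9 of 10 were (median 0.36, 44.6%). In the IgG arm the counts were 9 (median 0.10, 47%) and 5 (median 0.01, 50.3%). Only 2 of these 10 were higher at ug than at 1g in each of the 3 IgG sets, against 11% of all genes. Spry2, for example, differed from 1g by 1.13 in set IgG 3, but by -0.37 and -0.28 in sets IgG 1 and IgG 2. No member was called in these comparisons, against 0% of all genes. In the E2 arm, Spry2 differed most in set E2 2, by 1.31 from 1g and 1.43 from 2g.

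The antibody comparison was made in each environment. At ug, 9 of 10 members were higher in E2 than in IgG, with a median log2 difference of 0.30 against 0.00 over all genes, of which 49% had a difference above 0. Of the members, 2 reached an unadjusted p below 0.05 in that direction, against 4.15% of all genes, and 1 (Dusp16) in the lower one, against 8.7%. Spry2 had 9.24, 9.51 and 8.39 in ug E2 arrays, against 8.08, 7.61 and 8.82 in ug IgG arrays. The groups overlapped through the ug array of set IgG 3. The log2 difference was 0.88 ± 0.32 (SE, n = 3 each), with an interval of 0.21 to 1.55 and an adjusted p of 0.305 in limma. Over the settings tried it lay between 0.60 (without set IgG 2) and 1.21 (without set E2 3). For Dusp6 the difference was 0.51 ± 0.21, with an adjusted p of 0.328, and it lay between 0.36 (without the ug array of set E2 2) and 0.74 (without that of set IgG 3). Without the ug array of set E2 2, 0 members had an unadjusted p below 0.05 in the higher direction, against 2.77% of all genes. Without the arrays of set IgG 2 at 2g and ug there were also 0, against 3.44%. Without the ug array of set IgG 3 there were 6, against 4.53%. Without the ug arrays of both E2 2 and IgG 3 there were 5, against 2.81%. No member was called at ug, against 0% of all genes.

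In the incubator, Spry2 had a log2 difference between E2 and IgG of 0.15 ± 0.32, with an interval of -0.52 to 0.82, and Dusp6 of 0.02 ± 0.21. Dusp2 was higher in E2 in the incubator by 0.28 ± 0.15, without overlap between the groups (19% of all genes were separated in that direction), and its adjusted p was 0.197 in limma. Dusp1 was higher by 0.31 ± 0.23.

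Dusp16 was lower in E2 than in IgG in all 4 environments. Its levels were 7.89, 7.87 and 7.66 in ug E2 arrays, against 8.07, 7.94 and 8.09 in ug IgG arrays, and 7.99, 7.87 and 7.86 in incubator E2 arrays, against 8.23, 8.05 and 8.16 in incubator IgG arrays. The groups did not overlap at ug, 2g and C, and overlapped at 1g through 1 E2 array. Of all genes, 8.62%, 4.99% and 16.1% were separated in that direction at ug, 2g and C. Over the set means, which use each set once, the log2 difference was -0.22 ± 0.07 (SE, 3 sets each), with an unadjusted p of 0.0225 (11.3% of all genes were lower with a p below 0.05) and an adjusted p of 0.181 in limma. The set means did not overlap, which held for 12.4% of all genes in that direction, and 0% of all genes were called. Spry1 set means did not overlap in the other direction, with a difference of 0.08 ± 0.04, and 15.4% of all genes did so. All E2 arrays belong to other sets than the IgG arrays, so antibody and set cannot be told apart in these comparisons. Sets took up 74.2% of the variance of Dusp16 and 68.9% of that of Spry4, against a median of 51.5% over all genes. For Dusp2 they took up 15.4%, and the environments within an arm 54.9%, against a median of 16.8%.

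Several members varied together from array to array. After the mean of each set was removed, Pearson's r over the 24 arrays was 0.96 for Dusp6 and Spry2, 0.92 for Dusp4 and Dusp6, 0.91 for Dusp4 and Spry2, 0.89 for Dusp1 and Spry2 and 0.89 for Dusp5 and Spry2. These are descriptions over arrays that share sets and a common array design, and carry no p. Spry2 and Dusp6 were each other's closest gene among all tested. The highest r of Spry1 with another member was 0.40 (Spry4), and Dusp16 was negative with all 9, down to -0.63 with Dusp4. The sign for Dusp16 depended on the centring, since with group means removed in place of set means it was positive with 6 of 9, from 0.08 (Dusp2) to 0.37 (Spry4). Without the ug arrays of sets E2 2 and IgG 3, r was 0.92 for Dusp6 and Spry2, and 0.60 in place of 0.85 for Dusp1 and Dusp2.

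**Figure D4:**
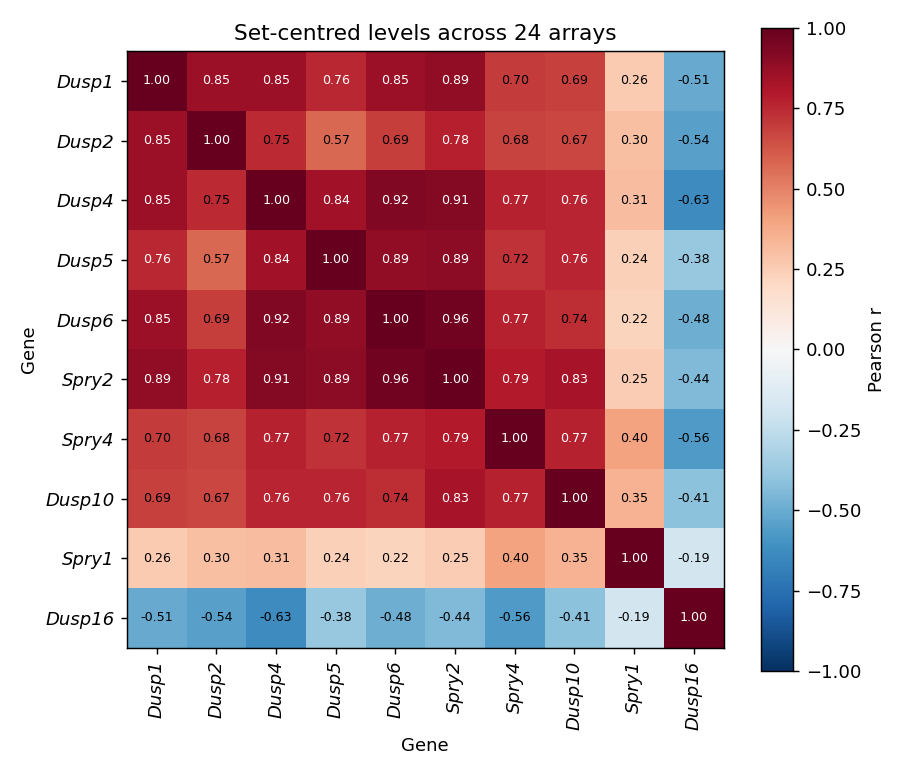
Pearson's r between the 10 genes over 24 arrays after the set mean was removed, in colour and as numbers. Dusp6 and Spry2 stand at 0.96, and Dusp16 is negative with the other 9, of which 6 turn positive when group means are removed instead.

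Outside the list, the genes most like each member were named by rule, as the closest pair by set-centred r over the 24 arrays. Dusp1 was most like Nr4a1, an immediate-early nuclear receptor (0.96), and Slco4a1 (0.95). Dusp2 was most like Tob2 (0.93) and Arc, an immediate-early gene (0.92). Dusp5 was most like Maff, a small Maf transcription factor (0.96), and Rhob (0.94). Has1, a hyaluronan synthase, was the closest gene to Dusp4 (0.93) and the next after each other for Dusp6 (0.93) and Spry2 (0.95), and Zfand2a came next for Dusp4 (0.92). Dusp10 was most like Rassf1 (0.89) and Rdh10 (0.85), Spry4 like 5031425E22Rik (0.88) and Klhl21 (0.86), and Spry1 like 1700008J07Rik (0.86) and Foxe3 (0.86). Dusp16 was most like Rest (0.80) and Ate1 (0.77), but with group means removed in place of set means r was -0.25 and 0.03. On the same footing r was 0.38 for Zfand2a with Dusp4 and 0.45 for Klhl21 with Spry4.

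Other genes of the pathway were counted in the same comparison, ug against the incubator in the E2 arm. Of 16 MAP kinase target genes, mostly immediate-early transcription factors, 13 were higher at ug, with a median log2 difference of 0.29, and 7 had an unadjusted p below 0.05, all higher, against 39.3% and 1.58% of all genes. None was called. Without the ug array of set E2 2, 12 of 16 were higher, with a median of 0.13. Of these 16, 3 had an unadjusted p below 0.05 in the higher direction, against 0.952% of all genes. With the block, the same fit gave 13 of 16, a median of 0.20 and 7 such genes, against 2.36%. In the IgG arm 9 of 16 were higher, against 49.2% of all genes, with a median of 0.10. Without the ug array of set IgG 3 the count was 4 and the median -0.07, and with the block 6 and -0.03. In the E2 arm the 2 with the smallest p were Atf3, a stress-induced transcription factor, at 1.39 ± 0.31 (adjusted p 0.839 in limma), and Fosb, an AP-1 subunit, at 1.39 ± 0.36 (adjusted p 0.875). Over both arms against the mean of the other environments, Atf3 and Fosb differed by 0.98 ± 0.18 and 0.99 ± 0.21, with adjusted p of 0.0996 and 0.185 in limma without a block and 0.0200 for both with it. Without the ug arrays of sets E2 2 and IgG 3 the differences were 0.56 ± 0.12 and 0.60 ± 0.17, with adjusted p of 0.902 and 0.9998 without a block and 0.764 and 0.980 with it. Without set IgG 2's arrays at 2g and ug, both had an adjusted p below 0.05 in limma without a block, 0.00356 and 0.00666. Those arrays were picked after the data were seen, because most members were highest at 2g in that set. Leaving them out favours a larger ug difference, so these p-values are no support.

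Of 12 other feedback genes, 5 were higher at ug, with a median of 0.00, and the smallest p belonged to Dusp14, at 0.19 ± 0.15. Of 11 tested ERK cascade genes 3 were higher, with a median of -0.05. Grb2, the adaptor between receptors and Ras, had the smallest p, at 0.16 ± 0.07. Of 14 tested JNK and p38 cascade genes 6 were higher, with a median of 0.00, and Map3k1, an upstream kinase, was at -0.17 ± 0.08. No gene of these 3 lists was called in this comparison. For E2 against IgG in the incubator, Sos1 of the ERK cascade and Mapk9 and Map3k5 of the other cascade were called, all lower. Their adjusted p in limma were 0.0431, 0.0464 and 0.0497, where 2.92% of all genes were called. With the block, Map3k20 was lower at ug than in the incubator over both arms, with an adjusted p of 0.0249 (0.628% called).

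The target genes also differed between sets. The mean of the 16 target genes at ug exceeded the other arrays of the set by 0.29, 0.73 and 0.42 in sets E2 1 to E2 3, and by 0.10, -0.13 and 0.50 in sets IgG 1 to IgG 3. The set with the largest target shift in each arm, E2 2 and IgG 3, was also the set with the most members above 0.5.

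**Figure D5:**
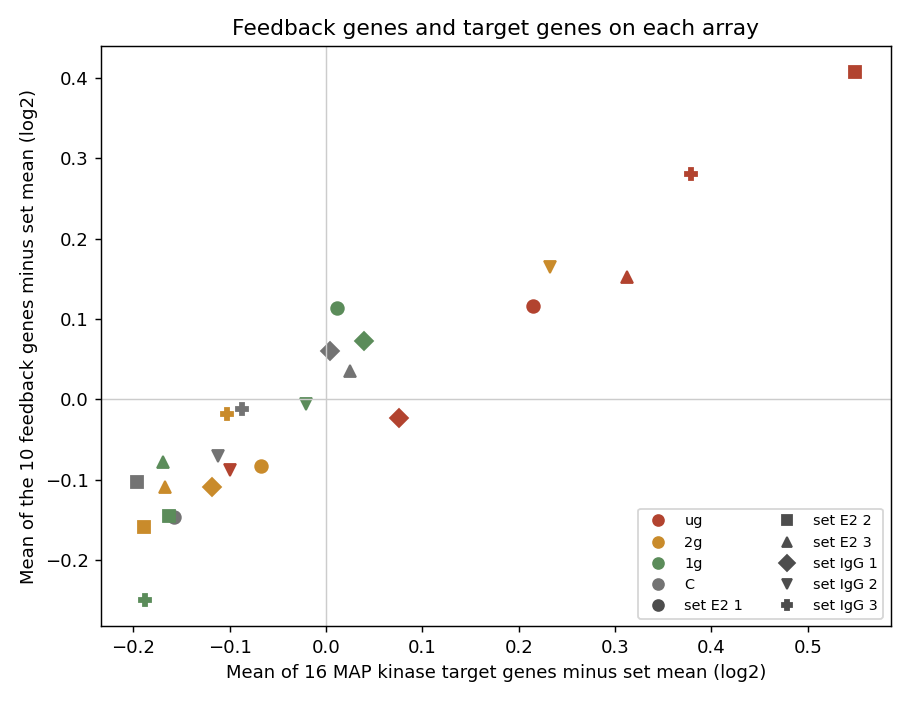
Mean of the 10 feedback genes against the mean of 16 MAP kinase target genes on each of the 24 arrays, both as log2 level minus the set mean, with colour for the environment and shape for the set. The ug arrays of sets E2 2 and IgG 3 lie at the upper right, and the 2g array of set IgG 2 lies above the other 3 arrays of its set.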

How the data were processed

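Total RNA of MLO-Y4 cells was measured on 24 Affymetrix arrays, 3 for each of 8 groups read from sample titles and source names. The deposited values are log2 intensities per probe set, a unit inferred from their range of 2.36 to 14.06. Per the submitters' processing notes the authors used MAS5, with no role or version, and scaling between arrays and build are not given in the sources used here. Values were used as deposited. Of 35556 probe sets, 21789 had exactly 1 gene symbol in the platform table, 1621 several and 12146 were not listed. Probe sets at or above the array's 40th percentile on at least 3 arrays were kept, and the brightest probe set of a gene was used, which gave 14489 genes.

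Tests used limma 3.58.1 under R 4.3.3 (8 group means over all arrays, variance trend, two-sided, Benjamini-Hochberg over all genes within a comparison, threshold 0.05). Set means were tested in a separate fit, with the set as replicate. The fit was run on simulated data with independent arrays and no set effect. Such data cannot show how it behaves when arrays of a set vary together. Same-numbered arrays within an arm deviated together (r of 0.195 to 0.812 over 36 pairs), so the numbers were taken to pair arrays within an arm. That pairing comes from the values and not from the labels. The members, lists, comparisons and naming rule (all members, the 2 most like genes, and the 2 smallest p of each list) were chosen with earlier results of these data known. Alternatives were the block, a random block, quantile normalization, no filter, the mean of a gene's probe sets, a fit without the variance trend, a fit to the compared arrays alone, and leaving out replicates or single arrays. The last, for the ug arrays of sets E2 2 and IgG 3, and the fits that combine it with the block, were chosen after seeing the data. Promoters were read from RefSeq's table for GRCm38.p6. The number of arrays sets the precision, since intensities carry no counts.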

Additional observations from a re-analysis of the deposited data

How the results depend on the processing

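Of 337 counts of called members under other settings, 333 stayed at 0. The replicate block, in which the numbers pair arrays within an arm, gave 1 (Dusp2) for ug against the incubator over both arms and 1 for ug against the mean of the other environments over both arms, where the set as a random block and the fit without the 2g and ug arrays of IgG replicate 2 also gave 1. Those IgG replicate 2 arrays were chosen after seeing the data, so the count without them is no support. Both of these comparisons over both arms were added after the data were seen, and the cause of these counts was not tested. Used alone, the block changed no other call of a member. Within one environment, a block within arm cannot be fitted to E2 against IgG, and the number alone was the block there.

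Counts over all genes moved more. For E2 against IgG in the incubator, 423 genes were called, 0 with a random block, 46 with quantile normalization, 60 without the filter and 0 with only the arrays compared. Leaving out a replicate gave 0 to 1355, the lowest without IgG 1 or IgG 2 and the highest without E2 1. In the IgG arm, 1g against the incubator gave 0 genes, 7 with the block and 3 with a random block. The platform mean against the incubator gave 0, 102 with the block, 20 with a random block and 2 without the ug array of IgG replicate 3.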
